A study of Mus musculus with 6 samples.

Results

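GABA-A receptors are the main fast inhibitory receptors of the brain, chloride channels built as a ring of subunits around a pore. Most hold alpha and beta subunits, whose interfaces bind GABA, together with a gamma subunit, which places the receptor at synapses and forms the benzodiazepine site with certain alpha subunits, or with a delta subunit in receptors outside the synapse. The subunit genes lie in clusters, and the mixture that a cell expresses sets the kinetics, the location and the drug sensitivity of its inhibition. Here 7 genes were followed, the alpha genes Gabra2, Gabra3, Gabra4 and Gabra5, the beta genes Gabrb1 and Gabrb2 and the gamma gene Gabrg1. They were chosen by name from the 27884 genes of the deposited table, and all 7 passed the filter on low counts.

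The 6 libraries came from the preoptic area of the hypothalamus of female NuTRAP mice crossed to Pnoc-Cre, aged 17 to 18 weeks. In these mice Pnoc-Cre, the driver of the prepronociceptin gene, switches on an EGFP tag on ribosomes, so that the tag marks cells with present or past Cre activity. In each of 3 replicates tissue of 3 animals was pooled, ribosome-bound RNA was purified with an antibody against GFP (IP), and total RNA of the same preparation was sequenced as input. Both groups come from animals with both alleles, and the comparison is between 2 RNA fractions of the same tissue, not between genotypes. It asks how the ribosome-bound RNA of PNOC cells differs from the RNA of the whole preoptic area. Total counts lay between 48204567 and 53056642 per library. Pnoc was higher in IP in 3 of 3 pools (log2 fold change 2.06 ± 0.22, SE), which checks the labels. The median of 15 pan-neuronal genes was 0.48 on the log2 scale. Of these 15 genes 7 rose and 1 fell, beside 12.9% and 17.1% of all genes tested. The number rising was 3 without IP replicate 2, IP replicate 3 or input replicate 3, and 0 without both libraries of replicate 3, and the number falling was 0 to 2 over the alternative fits. All 13 astrocyte, all 12 oligodendrocyte and all 13 microglial markers fell, as did 8 of 9 markers of oligodendrocyte precursors.

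Of the 7 subunit genes 1 was lower in IP, Gabrb2, and 0 were higher, by edgeR's quasi-likelihood test at an adjusted p under 0.05. The other 6 did not pass, and none was higher at an unadjusted p under 0.05 or in DESeq2. Among all 18640 genes tested 17.1% were lower and 12.9% were higher, 30% in either direction. The median log2 fold change of the 7 was -0.07, and that of all genes tested was -0.07 as well. In tissue RNA, fewer cells of a type and less RNA per cell cannot be told apart, and the same holds for the IP fraction. Only for Gabrb2 did the 3 IP libraries lie entirely apart from the 3 input libraries, a pattern found in 47.7% of all genes tested.

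**Figure D1:**
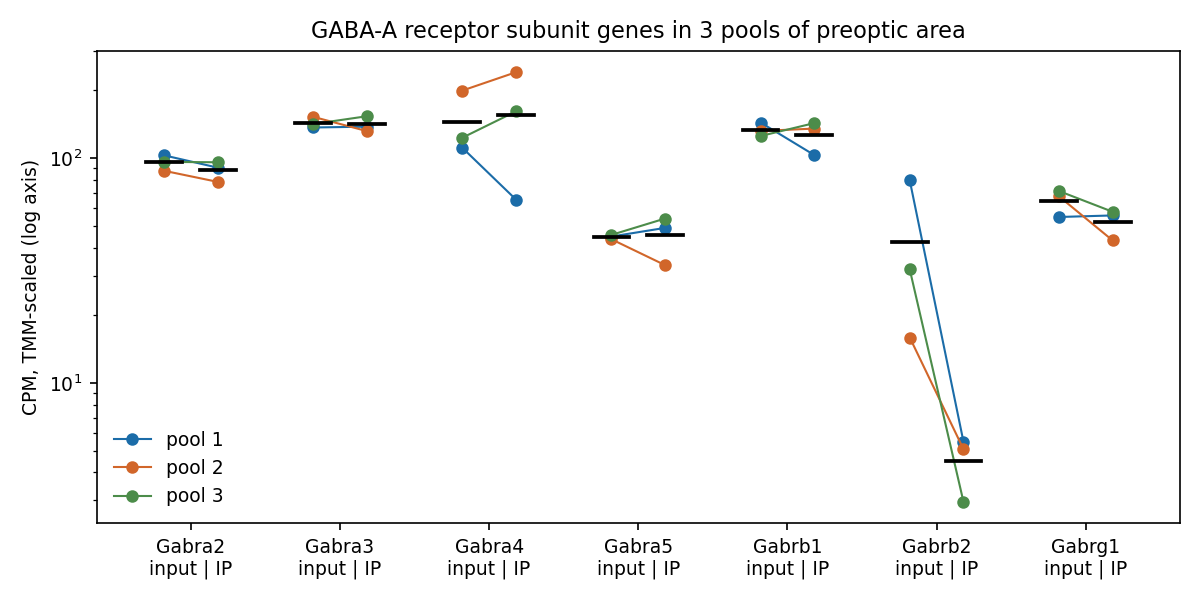
Level of each subunit gene in CPM (read counts scaled to a common library size with TMM factors, log axis) in input and IP. Each coloured point is a library, lines join the input and IP libraries of 1 pool, and black bars are group means (n = 3). Gabrb2 falls from 15.9 to 79.6 CPM in input to 2.96 to 5.48 CPM in IP, and for the other 6 genes the groups overlap.

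Gabrb2 encodes the beta2 subunit, a beta subunit common in forebrain and thalamic receptors that is sensitive to the anaesthetic etomidate. The gene (ENSMUSG00000007653, mm39 chromosome 11, 42310584 to 42519855, plus strand) had 257, 234 and 147 reads in IP replicates 1, 2 and 3, and 4121, 867 and 1654 reads in input. In CPM these were 5.48, 5.07 and 2.96 in IP and 79.6, 15.9 and 32.0 in input. Every IP library lay below every input library, and the input libraries differed among themselves 5.0-fold. The means were 4.51 ± 1.35 CPM in IP and 42.5 ± 33.1 CPM in input (SD, n = 3). The log2 fold change was -3.24 ± 0.56 (SE; 95% interval -4.53 to -1.95), a 9.43-fold lower level in IP (adjusted p = 0.00418, edgeR). Of all genes tested 2.68% had a lower log2 fold change. Pool by pool the log2 ratio of IP to input was -3.85, -1.64 and -3.41, so that all 3 pools had the same direction and pool 2 the smallest difference. No exon of Gabrb2 overlaps an exon of another gene in GENCODE M39, on either strand.

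The size of the Gabrb2 difference depended on input replicate 1. Without that library the log2 fold change was -2.40, a 5.29-fold lower level, and the call was kept. Without both libraries of replicate 3 it was -3.18 and did not pass (adjusted p = 0.0758, edgeR). The authors' deposited table gives -3.20 with an adjusted p of 3.24e-05 from DESeq2.

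Markers of neighbouring regions differed between pools, as input Gabrb2 did. In the 3 input libraries the summed level of 10 striatal markers was 2408, 667 and 1048 CPM, and both these sums and Gabrb2 were highest in replicate 1 and lowest in replicate 2. The sum of 9 thalamic markers was instead lowest in input replicate 1, at 418 CPM against 1666 and 1192 CPM in input replicates 2 and 3. The IP libraries held 526 to 899 CPM of the striatal markers, of which 3 of 10 fell, beside 17.1% of all genes tested. That count was 0 without IP replicate 2 or 3, 1 without input replicate 3 and 6 without input replicate 2. With the replicate, which pairs IP and input of 1 pool, as a block it was 6, and 8 with length and GC correction added. Of all 18640 genes tested these 2 fits called 3617 and 3293 lower. Summed levels of 9 cortical excitatory markers were 720, 257 and 177 CPM in input replicates 1, 2 and 3, also highest in replicate 1. In IP they lay between 158 and 384 CPM. Of the 8 cortical markers tested 0 were called without the block, in edgeR or DESeq2, or had an unadjusted p under 0.05 in edgeR. With the replicate block 3 of them were called lower in edgeR. Each striatal marker was detected in every library, and 1 cortical marker was at 0 in at least 1 library. In pool 2 the striatal sum was 1.27-fold higher in input than in IP and the cortical sum was 1.49-fold higher in IP, while Gabrb2 stood at -1.64 on the log2 scale. Glial markers fell as well, with a median log2 fold change of -2.65 for astrocyte and -3.23 for oligodendrocyte markers. The part of neighbouring tissue or of glia in the Gabrb2 difference was not tested.

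Gabrb1, the gene of the beta1 subunit, which is far less sensitive to etomidate than beta2, did not pass the test. It lies on chromosome 5 from 71815456 to 72306380 on the plus strand. Its levels were 103, 135 and 143 CPM in IP and 144, 132 and 125 CPM in input. The ranges overlapped, with IP replicate 1 the lowest library of the 6. The log2 fold change was -0.07 ± 0.15 (SE; 95% interval -0.42 to 0.27; adjusted p = 0.75, edgeR).

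The beta genes were also compared as shares. Per length, in the authors' FPKM (fragments scaled by gene length and sequencing depth), Gabrb2 made up 54.6%, 20.8% and 35.7% of the summed level of Gabrb1 and Gabrb2 in input replicates 1, 2 and 3. In IP it made up 10.4%, 7.54% and 4.31%. The groups did not overlap, and the share was 7.40 ± 3.03% in IP and 37.0 ± 16.9% in input (SD, n = 3). The exact two-sided permutation test gave p = 0.10, the smallest value that 3 libraries against 3 can give, and 0.30 after adjustment over the 6 shares examined. The share of Gabrb1 is fixed by that of Gabrb2, so that the adjustment counts the same test under both genes. The permutation tests of shares did not use the pairing of IP and input. Library scaling cancels in these shares.

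**Figure D2:**
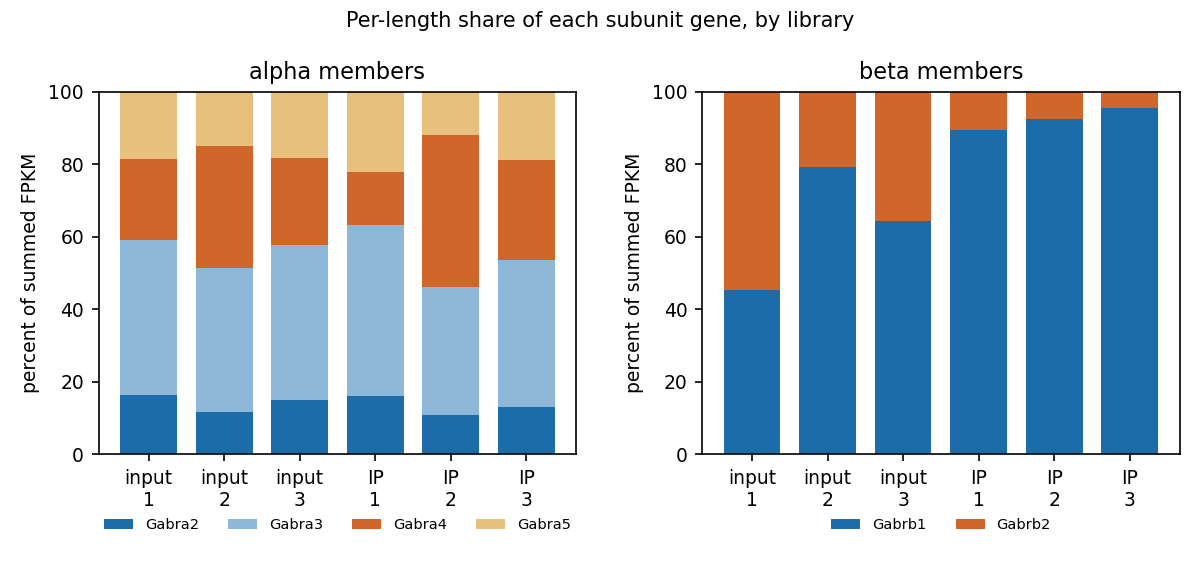
Share of each gene in the summed FPKM of the 4 alpha members (left) and of the 2 beta members (right), as percent, one bar per library. Gabrb2 takes 20.8 to 54.6% of the beta bar in input and 4.31 to 10.4% in IP, while Gabra3 takes 35.5 to 47.4% of the alpha bar in all 6 libraries.

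Sequence before the start of Gabrb2 is shown because this gene changed, beside that of Gabrg1, which differs from it most in base composition. Both are the 250 bases before the start of the RefSeq promoter entry, placed on GRCm39 by exact match, 5′ to 3′ on the gene's strand. Capitals mark GGGCGG or TATAAA on either strand. The Gabrb2 window (chromosome 11, 42311017 to 42311266, plus strand) is the first of its 3 entries, and lies in an exon of a longer Gabrb2 transcript of GENCODE. The Gabrg1 window covers chromosome 5 from 70999961 to 71000210 on the minus strand.
Gabrb2: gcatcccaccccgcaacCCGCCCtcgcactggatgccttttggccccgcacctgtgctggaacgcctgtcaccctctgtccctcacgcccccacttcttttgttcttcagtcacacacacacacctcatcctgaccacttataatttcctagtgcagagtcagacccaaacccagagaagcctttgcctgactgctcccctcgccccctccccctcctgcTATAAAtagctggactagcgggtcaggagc
Gabrg1: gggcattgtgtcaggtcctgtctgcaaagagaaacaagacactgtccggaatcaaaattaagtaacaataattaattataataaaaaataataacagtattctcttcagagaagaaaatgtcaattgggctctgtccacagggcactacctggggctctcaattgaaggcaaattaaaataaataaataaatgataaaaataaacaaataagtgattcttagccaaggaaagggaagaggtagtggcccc
The Gabrb2 window had 58.8% GC and 8 CpG sites, with TATAAA beginning 30 bases before the start and GGGCGG, read on the opposite strand, beginning 233 bases before it. The other 2 Gabrb2 entries, with 54% and 36.8% GC and 8 and 4 CpG sites, hold neither motif. The Gabrg1 window had 35.6% GC and 1 CpG site, and neither motif. Of 32851 promoter windows of this length 32.7% held GGGCGG and 12.4% held TATAAA on either strand, and the median window had 6 CpG sites. TGACGTCA, the cyclic AMP response element, and GCGTGGGCG, an Egr motif, were found in neither window and in 1.55% and 0.54% of all windows.

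Among the alpha genes, Gabra3 was the steadiest of the 7 over the libraries. It encodes alpha3, which forms benzodiazepine-sensitive receptors and is common in hypothalamic and brainstem neurons. The gene lies on the X chromosome (71476287 to 71700454, minus strand). It had 138, 132 and 154 CPM in IP and 137, 153 and 142 CPM in input, overlapping ranges in which the highest library exceeded the lowest 1.16-fold. The log2 fold change was -0.03 ± 0.12 (SE; 95% interval -0.30 to 0.25; adjusted p = 0.89, edgeR). Of all genes tested 96.4% had a larger standard error.

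Gabra2 encodes alpha2, a synaptic subunit linked to the anxiolytic action of benzodiazepines. On chromosome 5 (71114940 to 71253192, minus strand), it had 90.7, 78.4 and 95.9 CPM in IP and 103, 87.9 and 96.2 CPM in input. IP was below input in 3 of 3 pools, with log2 ratios of -0.18, -0.16 and -0.01, but the ranges overlapped. The log2 fold change was -0.12 ± 0.13 (SE; 95% interval -0.42 to 0.19; adjusted p = 0.55, edgeR).

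Gabra5 encodes alpha5, a subunit of largely extrasynaptic receptors that is best known from hippocampus. The gene (chromosome 7, 57057420 to 57159807, minus strand) had 49.0, 33.4 and 53.9 CPM in IP and 44.8, 43.6 and 45.6 CPM in input. The input libraries differed at most 1.05-fold, and the IP libraries lay on both sides of them. Its log2 fold change was 0.02 ± 0.18 (SE; 95% interval -0.39 to 0.44; adjusted p = 0.93, edgeR). Opposite-strand genes share 7.92% of its exonic bases in GENCODE M39, and such reads cannot be told apart where counting did not use strand.

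In the fit without block or correction, the 95% interval for Gabra2, Gabra3, Gabra5 and Gabrb1 lay inside a 1.5-fold change in either direction (0.58 on the log2 scale). For Gabra4 and Gabrg1 it did not. Intervals of the other fits were not compared with this bound. Gabrb1 stood at 0.34 ± 0.12 (SE) with replicate block and length and GC correction. Gabra5 stood at 0.22 ± 0.16 (SE) without both libraries of replicate 2. All intervals of the fit without block or correction rest on 3 libraries a group. In that fit the lower bound for all 6 lay below 0 and the upper bound above it, so that neither direction was shown.

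Gabrg1 encodes gamma1, a gamma subunit of low benzodiazepine sensitivity that is found in few regions, the preoptic area and amygdala among them, and also in astrocytes. The gene (chromosome 5, 70908390 to 70999960, minus strand) had 55.6, 43.0 and 57.7 CPM in IP and 54.7, 67.6 and 71.4 CPM in input. Input replicate 1 lay between the IP libraries, and the other input libraries lay above them all. The log2 fold change was -0.31 ± 0.17 (SE; 95% interval -0.69 to 0.07; adjusted p = 0.20, edgeR). The 13 astrocyte markers summed to 1110 to 1241.5 CPM in IP and 4183 to 4787 CPM in input, with 0 markers at 0 in any library. Gabrg1 thus stood at a smaller difference than each of them, the least of which was -1.26. That difference between Gabrg1 and the markers was not tested.

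The direction for Gabrg1 turned in the fit that combined the replicate block with a correction for gene length and GC content. The 7 genes are rich in A and T, with a GC content from 33.9% (Gabrg1) to 44.2% (Gabra5) in the longest transcript, and 0.21% of the genes tested have a lower GC content than Gabrg1. With the replicate block alone Gabrg1 stood at -0.31 and did not pass (adjusted p = 0.16, edgeR). In the fit with the correction added it stood at 0.54 and was called higher (adjusted p = 0.0268, edgeR). Gabra2, Gabra3 and Gabrb1 then stood at 0.25, 0.15 and 0.34 and did not pass, with adjusted p values of 0.13, 0.37 and 0.0561 in edgeR, against negative values without block and correction. Gabra4 moved from 0.11 to 0.44 (adjusted p = 0.0895, edgeR). Length and GC content were corrected together, and their separate parts were not tested. Gabrb2 remained lower at -2.58 (adjusted p = 0.000462, edgeR).

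**Figure D3:**
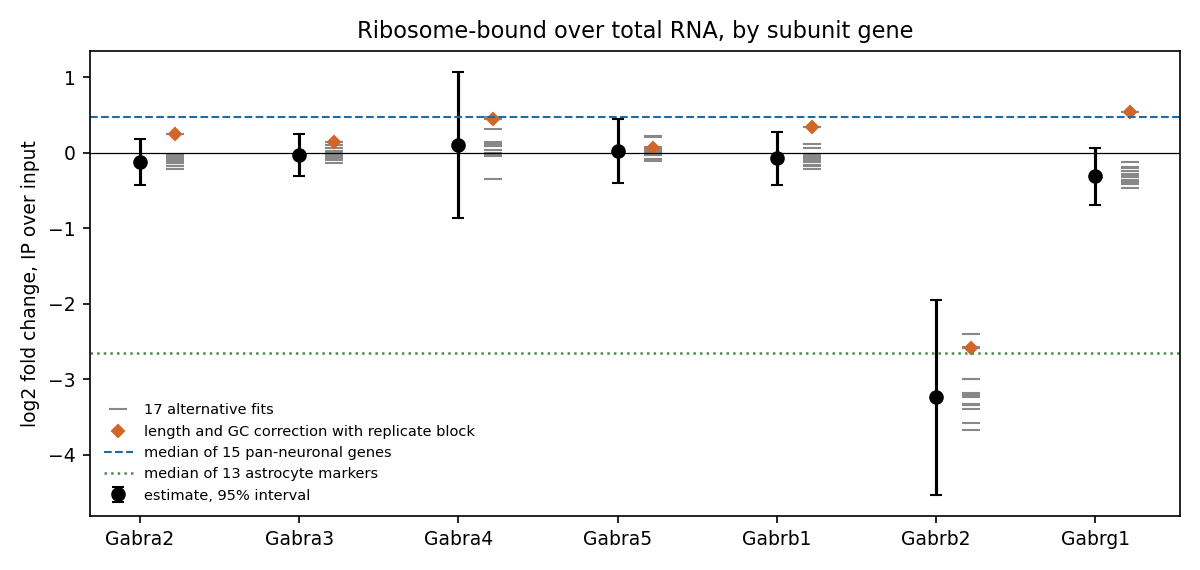
Log2 fold change of IP over input for each subunit gene, with its 95% interval (black, edgeR, n = 3 per group). Grey ticks are the 17 alternative fits and the orange diamond is the fit with length and GC correction and the replicate block. Dashed and dotted lines mark the medians of 15 pan-neuronal genes (0.48) and 13 astrocyte markers (-2.65). Only the Gabrb2 interval lies away from 0.

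Gabra4 varied most between IP libraries. It encodes alpha4, which joins the delta subunit in extrasynaptic receptors, is insensitive to classical benzodiazepines and is abundant in thalamus and striatum. The gene (chromosome 5, 71727092 to 71815651, minus strand) had 65.4, 241 and 162 CPM in IP and 111, 199.8 and 123 CPM in input. Replicate 2 was the highest in both fractions and replicate 1 the lowest in both, and the IP libraries differed 3.69-fold. The log2 fold change was 0.11 ± 0.42 (SE; 95% interval -0.86 to 1.07; adjusted p = 0.87, edgeR), and pool by pool the log2 ratios were -0.77, 0.27 and 0.39. This interval, from the fit without pairing, takes in a 1.5-fold change in either direction. With the replicate block the log2 fold change was -0.029 ± 0.21 (SE; adjusted p = 0.93, edgeR).

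Markers of thalamus had the same order over the pools as Gabra4. The summed level of 9 thalamic markers was 941, 2667 and 1725 CPM in IP replicates 1, 2 and 3 and 418, 1666 and 1192 CPM in input. As for Gabra4, it was highest in replicate 2 and lowest in replicate 1 in both fractions. Of the 9 markers 1 rose, 0 without IP replicate 2 or 3 and 6 with the replicate block, and all were detected in every library. Among all genes tested 12.9% rose without the block, and 2838 of 18640 rose with it. Gabrd, the gene of the delta subunit and named here after its values were seen, had 23.7, 67.0 and 30.8 CPM in IP and 26.9, 50.2 and 26.2 CPM in input, with replicate 2 again highest in both. It did not pass (log2 fold change 0.23 ± 0.40, SE, adjusted p = 0.70, edgeR). The part of thalamic tissue in the spread of Gabra4 was not tested.

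**Figure D4:**
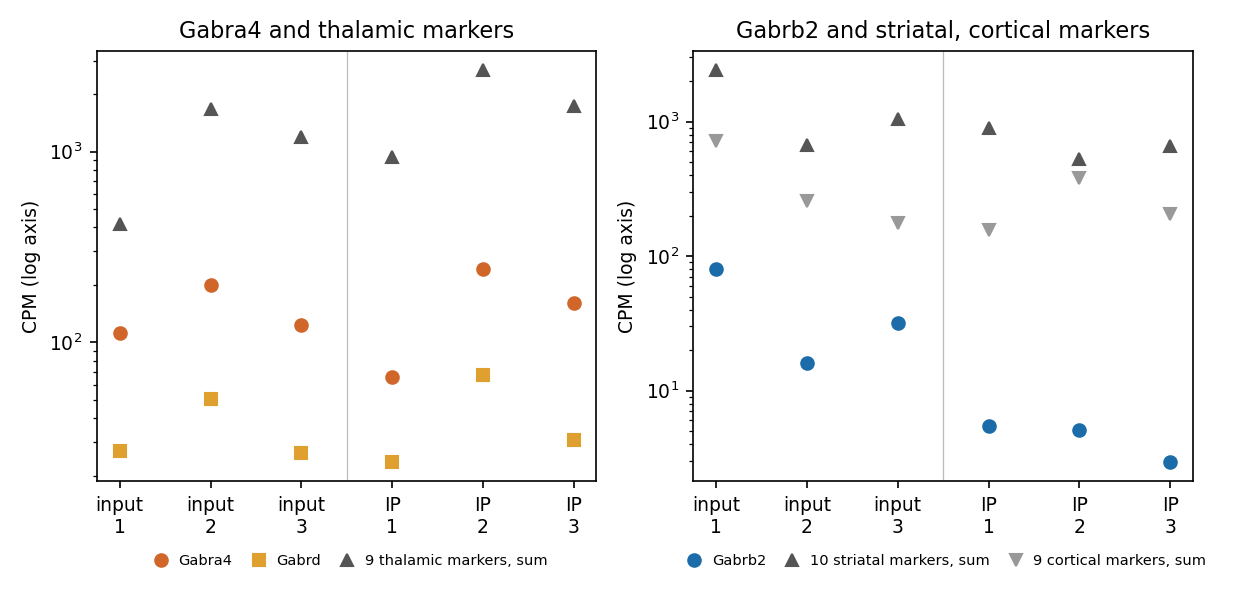
Left, Gabra4, Gabrd and the sum of 9 thalamic markers; right, Gabrb2 and the sums of 10 striatal and 9 cortical markers, in CPM on a log axis, one point per library. In the left panel all 3 measures peak in replicate 2 of each fraction. In the right panel Gabrb2, the striatal sum and the cortical sum all peak in input replicate 1.

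None of the 4 neighbouring genes on chromosome 5 passed the test. Gabrg1, Gabra2, Gabra4 and Gabrb1 follow each other there in this order, and their log2 fold changes were -0.31, -0.12, 0.11 and -0.07. Gabra4 and Gabrb1 lie head to head, and their annotated spans in the table overlap at the 5′ ends, from 71815456 to 71815651. Gabra4 shares 1.0% of its GENCODE exonic bases with the opposite strand, and Gabrb1 4.31%. In IP replicate 1 both were at their lowest, 65.4 and 103 CPM, while in IP replicate 2 Gabra4 was at its highest of 6 libraries and Gabrb1 was not.

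Levels of different genes were compared per length only. In IP the order by mean FPKM was Gabra3 (36.0 ± 2.97), Gabra4 (25.7 ± 14.5), Gabra5 (15.3 ± 3.59), Gabra2 (11.6 ± 1.18), Gabrb1 (9.20 ± 1.59), Gabrg1 (6.62 ± 1.0) and Gabrb2 (0.71 ± 0.21; SD, n = 3). The ranges of neighbours in this order overlapped from Gabra3 down to Gabrb1, and those of Gabrb1 and Gabrg1 were barely apart. Gabrb2 lay below Gabrg1 in every IP library. In input the same order held by mean, from 35.9 ± 2.29 FPKM for Gabra3 to 6.52 ± 5.01 FPKM for Gabrb2 (SD, n = 3). There the first 5 genes were separate in their ranges, while Gabrb1 and Gabrg1 overlapped, as did Gabrg1 and Gabrb2. Gabrb1 has the longest gene length of the 7, 13838 bases, which sets its FPKM below that of genes with fewer reads.

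Within the 4 alpha members Gabra3 held the largest mean share of the summed FPKM, 41.2 ± 5.96% in IP and 41.8 ± 1.75% in input (SD, n = 3). Gabra4 held 14.5%, 41.8% and 27.6% in the 3 IP libraries, the largest share of all in IP replicate 2. Exact permutation tests of the alpha shares gave p from 0.70 to 1 (two-sided, 3 against 3), and adjusted values of 1.

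Genes with the most similar profile over the 6 libraries were searched among 10173 protein-coding genes by Pearson correlation of log2 CPM. The closest to Gabrb2 was Tdrkh (r = 0.999), but 521 genes exceeded 0.95 for Gabrb2, against 1 to 17 for each of the others. Correlation does not measure the size of a difference. The log2 fold change of Tdrkh was -0.53, against -3.24 for Gabrb2. For Gabra4 it was Cpne9 (r = 0.996), at 13.1, 115 and 57.5 CPM in IP and 31.9, 84.0 and 43.9 CPM in input. The closest to Gabra2, Gabra3, Gabra5, Gabrb1 and Gabrg1 were Zfp287, Mmachc, Ovca2, Fgf13 and Sptssa, with r from 0.982 to 0.999. These values describe 6 libraries that share pools.

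Of the partners that hold GABA-A receptors at synapses, 5 of 13 scaffold and adhesion genes rose and 4 fell. Their median on the log2 scale was -0.38. Among all genes tested 12.9% rose and 17.1% fell. The number rising of these 13 was 3 without any one of the IP libraries or input replicate 3. Nlgn2, the neuroligin of inhibitory synapses, had 376, 362 and 302 CPM in IP and 215, 150 and 179 CPM in input, and rose by 0.93 ± 0.16 (SE, adjusted p = 0.00413, edgeR). Lhfpl4, which links the receptor to that neuroligin, rose by 0.90 ± 0.17. Rdx, the radixin that anchors alpha5 receptors, fell by 0.72 ± 0.14, and Dag1, dystroglycan, fell by 0.87 ± 0.19 (SE). Gphn, the main receptor scaffold gephyrin and named here after its values were seen, had 49.7, 44.6 and 31.8 CPM in IP and 83.5, 79.0 and 66.8 CPM in input, and fell by 0.86 ± 0.19 (SE).  Of 16 trafficking genes 5 rose and 2 fell, among them Gabarapl1, a relative of the GABA-A receptor-associated protein, which rose by 1.04 ± 0.14, Tmem35a, a chaperone of ligand-gated channels, which rose by 0.97 ± 0.11, and Plcl1 and Trak2, which fell by 0.75 ± 0.14 and 0.76 ± 0.19 (SE). Trak2 lost its call without any one of the 3 IP libraries or input replicate 3, which left 1 trafficking gene lower. The other genes named among scaffolds and trafficking kept their calls without any one library, and lost them without both libraries of replicate 3. Gphn and Plcl1 lost them without both libraries of replicate 2 as well.

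Of the other GABA-A subunit genes 8 were tested, of which 1 rose, beside 12.9% of all genes tested. None was called lower in edgeR with TMM scaling or in DESeq2, 2 were lower at an unadjusted p under 0.05, and 1 was called lower in edgeR with library totals alone. With the replicate block and length and GC correction 4 were called higher, beside 3182 of all 18640 genes tested. The gene that rose was Gabre, the epsilon gene, with 27.0, 20.3 and 29.1 CPM in IP and 12.96, 19.1 and 15.8 CPM in input (log2 fold change 0.67 ± 0.20, SE, adjusted p = 0.0381, edgeR), and its call was lost with library totals alone and without IP replicate 1 or 3 or input replicate 1 or 3.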

How the data were processed

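Libraries were poly(A)-selected and sequenced as paired ends of 75 bp, per the labels' protocols. The submitters' processing notes name HISAT2, featureCounts, DESeq2 and the build mm39. Their versions and the strand setting are not given in the sources used here. The deposited counts are whole reads per gene without normalization. The deposited normalized signal is the counts divided by 1 size factor per library, and the authors' FPKM is that signal divided by gene length and by 1 constant, both checked over all genes. Log2 changes and p-values of the authors' DESeq2 table are used only where named.

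Tests used the counts: edgeR 4.0.16 in R 4.3.3, quasi-likelihood test, TMM scaling, filterByExpr, group as the one factor, two-sided, Benjamini-Hochberg over 18640 genes, called at an adjusted p under 0.05. The code was tested on simulated counts with 200 changed genes among 18673 tested, a smaller part than the 30% called in these data. With fewer changed genes the adjustment of p is stricter, so that the recovery given here is not that in these data. It recovered 14% of changes of -1 on the log2 scale and 28% of changes of 1. Of changes of -2 and 2 it recovered 54% and 74%. A gene that did not pass is not shown to be unchanged. SE is the fold change divided by the square root of F. Replicate numbers pair IP and input of the same pool, per the series' design text. Deviations correlated at 0.26, 0.14 and 0.10 within pairs, and at -0.22 to 0.09 between IP and input of different pools. The blocked fit was an alternative. Pools hold 3 animals, so that p-values measure spread between pools. GC content came from GENCODE M39 for 98.9% of genes.

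The members and lists were chosen with earlier results of these data known. Other genes were named by rule, in each list the 2 called with the lowest adjusted p, separately for rises and falls. Some single genes are not reported here.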

Additional observations from a re-analysis of the deposited data

How the results depend on the processing

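Gabrb2 was lower in all 17 alternative fits and was called in 16 of them, the exception being the fit without both libraries of replicate 3, in which 0 subunit genes were called lower. Without 1 library Gabrb2 stood between -3.57 and -2.40 on the log2 scale, and the replicate block alone gave -3.00. That block changed no call among the 7 genes. With the block alone Gabra2, Gabra3, Gabrb1 and Gabrg1 stood at -0.12, -0.03, -0.08 and -0.31. With length and GC correction added to the block they turned to 0.25, 0.15, 0.34 and 0.54. In that fit 1 subunit gene, Gabrg1, was called higher, beside 3182 of all 18640 genes tested. Why the correction turned these signs was not tested.

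The signs of genes near 0 turned in other fits, with no call. Gabra3 stood at 0.0011 with RLE factors, 0.0016 in DESeq2 and 0.10 without both libraries of replicate 2. Gabra4 stood at -0.029 with the replicate block, -0.013 without both libraries of replicate 2 and -0.019 without those of replicate 3. Gabra5 stood at -0.079 with library totals alone, -0.0031 with the replicate block, -0.029 without both libraries of replicate 1, 0.22 without those of replicate 2 and -0.10 without those of replicate 3. Gabrb1 stood at 0.11 without both libraries of replicate 1 and -0.21 without those of replicate 3. Leaving out 1 library gave ranges of -0.08 to 0.06 for Gabra3, -0.35 to 0.48 for Gabra4, -0.11 to 0.21 for Gabra5 and -0.16 to 0.06 for Gabrb1. Differences in share, IP minus input, ranged from -2.46 to 0.11 points for Gabra2, -3.72 to 2.22 for Gabra3, -5.63 to 8.04 for Gabra4 and -1.86 to 3.29 for Gabra5.

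Over all genes 1417 to 2630 were higher and 2035 to 3080 lower without 1 library. Without both libraries of replicate 2 these counts were 1508 and 2095, and without those of replicate 3 they were 133 and 742. Every subunit gene had at least 147 reads in every library, the lowest being Gabrb2 in IP replicate 3. The effect of depth on these values was not tested.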

Other observations

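Genes that set the chloride gradient, on which the effect of an open GABA-A channel depends, were called in both directions. Of 15 such genes 2 rose and 4 fell, beside 12.9% and 17.1% of all genes tested. The number rising was 1 without any one of the IP libraries or input replicate 3. It was 5 with the replicate block and length and GC correction, beside 3182 of all 18640 genes tested. Slc12a5, the neuronal chloride exporter KCC2, rose by 0.70 ± 0.19 (SE, adjusted p = 0.0273, edgeR), and Slc12a2, the chloride importer NKCC1, fell by 2.07 ± 0.18 (SE, adjusted p = 0.000196, edgeR). Slc4a3, an anion exchanger, rose by 0.66 ± 0.12, and Slc12a4, the exporter KCC1, fell by 3.64 ± 0.35 (SE). The Slc12a5 call was lost with library totals alone and without any one of the IP libraries or input replicate 3, whereas Slc12a2 and Slc12a4 were called in all 17 alternative fits. Slc12a2 and Slc12a4 fell beside the 13 of 13 astrocyte and 12 of 12 oligodendrocyte markers, and the part of glial RNA in this was not tested.

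Of 6 tested genes for endogenous modulators of the receptor 2 rose and 1 fell, beside 12.9% and 17.1% of all genes tested. The number falling was 2 without IP replicate 1 and in DESeq2, and the number rising was 0 without IP replicate 2 or 3. Dbi, the gene of the diazepam-binding inhibitor, fell by 1.21 ± 0.24 (SE, adjusted p = 0.00715, edgeR). Its call was lost without both libraries of replicate 2 or of replicate 3, which left 0 of these genes falling. Acbd7, a relative of Dbi, rose by 2.39 ± 0.62, and Star, which feeds cholesterol into steroid synthesis, rose by 0.61 ± 0.18 (SE). The level of Acbd7 was low, at 2.03, 2.17 and 2.12 CPM in IP and 0.62, 0.46 and 0.12 CPM in input. Without 1 library both Acbd7 (IP replicate 2 or 3) and Star (each IP library and input replicate 3) lost their calls. Among 6 genes of GABA release and uptake 2 rose, Gad1 by 0.92 and Slc32a1 by 0.97, and 1 fell. The number falling was 2 without IP replicate 1 or with library totals alone. It was 3 with the replicate block, beside 3617 of all 18640 genes tested. The gene that fell in all 17 alternative fits, Slc6a11, the glial transporter GAT3, fell by 2.63 ± 0.16 (SE, adjusted p = 4.38e-05, edgeR).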
